A study of Drosophila melanogaster with 40 samples.

Results

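The comparison described here sets binding of the repressor Capicua (Cic) in embryos given 30 min of blue light against binding in embryos of the same genotype kept without light, with attention to the sites where almost nothing was left and the sites where more of the signal remained. It covers 103 Cic peaks, all 103 of the final peak list that the authors annotated to genes, out of 468 calls of the peak caller. The list was annotated from peaks called on wild type against untagged embryos, and how it was filtered is not given in the sources.

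Cic is an HMG-box transcription factor that keeps target genes off until receptor tyrosine kinase (RTK) signalling through the kinase ERK relieves the repression. In the early fly embryo the receptor Torso activates ERK at both poles, where the terminal genes tll and hkb are then expressed, and the EGF receptor activates it later along the sides. OptoSOS brings the Ras activator SOS to the membrane in blue light and so switches on the pathway from Ras to ERK throughout the illuminated embryo.

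Both groups carried the genotype (UAS-OptoSOS/gal4);(CicsfGFP/gal4), in which the endogenous Cic locus was tagged with super-folder GFP and MTD gal4, the maternal triple driver, supplied the optogenetic construct from the mother. Embryos were collected over 3 to 4 h in the dark, dechorionated under red light, exposed to blue light for 30 min or not at all, fixed for 15 min, and selected at early nuclear cycle 14. Chromatin was precipitated with an antibody against GFP. The groups of wild type Cic-sfGFP embryos, of 1 and 5 min of light, and of the constitutively active receptor allele TorD4021 serve only as reference values, and untagged OreR embryos were the control of the peak call. The series text gives 3 biological replicates for each of the no light and 30 min groups, but each group is held as 1 matrix in which replicates were already combined. The spread between replicates is therefore unknown, no test across samples was possible, and no p-value is given. The matrices were in z-scores relative to noise peaks, and coverage over noise, where 1 is the mean of the noise peaks of that condition, was recovered from their steps. The value of a peak is the mean within 250 bp of the window centre. At the median peak it rested on 221 read equivalents in no light and 60.7 at 30 min, so the 30 min values are the less precise, and the 95% intervals given below cover counting error only.

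After 30 min of light, Cic coverage was lower at nearly all sites. The median coverage over noise was 7.41 in no light (95% order-statistic interval over peaks 6.54 to 8.99) and 2.54 at 30 min (2.25 to 2.95). Coverage in no light ran from 2.30 to 33.9, and coverage at 30 min from 0.799 at pros to 10.96 at CG12986, so the ranges overlapped. The median peak was 3.11-fold lower (2.81 to 3.37). Of the 103 peaks, 98 were lower beyond counting error, 0 were higher and 5 were neither. A peak was called lower where it was at least 2-fold lower and its interval excluded 1, which held for 82 peaks (79.6%). In the opposite direction 0 peaks (0%) were called. Without any light, no light coverage ranged from 0.525 to 1.74 times that of wild type, and 0 peaks (0%) were called lower than in wild type by the same limit.

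The share of enrichment retained was used to separate loss from residual binding: the height above noise at 30 min as a percentage of the height above noise in no light. The median share was 22.1% (17.2% to 25.9%), with quartiles of 11.2% and 32.8%. At most 10% was retained at 21 peaks (20.4% of all), which are called near-complete losses here. At least 33% was retained at 25 peaks (24.3%), called residual, and the other 57 lay between. These limits are round numbers on a continuous distribution. Just inside the lower limit lay pnt peak 1 at 9.40% and Egfr at 9.41%, and just outside it hbn at 10.4% and hkb peak 1 at 10.5%. Just outside the upper limit lay abd-A at 32.8%, and just inside it salm at 33.8%.

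**Figure D1:**
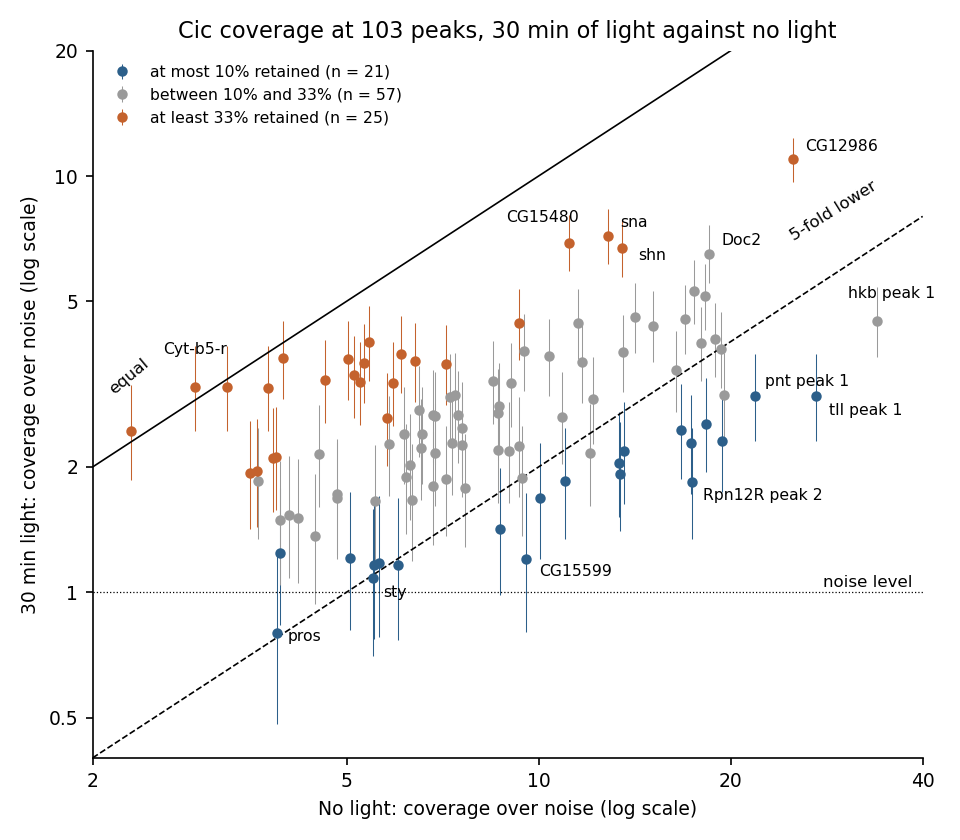
Coverage over noise at 30 min (vertical, log scale) against no light (horizontal, log scale) for 103 peaks, coloured by the share of enrichment retained. Bars are 95% counting intervals of the 30 min value, the solid line marks equal values, the dashed line a 5-fold lower value and the dotted line the noise level. Points with at most 10% retained lie between 0.799 and 2.96 at 30 min although they span much of the no light range, and CG12986 stands above all other peaks at 30 min.

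The terminal genes lost most of their Cic. At tll, which encodes a nuclear receptor required for both embryonic ends, the promoter peak (3R, 30851662 to 30852585, dm6) had a coverage of 27.3 in no light and 2.96 at 30 min, 9.21-fold lower (7.22 to 11.9). Its upstream neighbour, tll peak 2 (3R, 30849340 to 30850503), went from 19.4 to 2.31, 8.38-fold lower (6.35 to 11.3). The retained shares were 7.46% (4.99% to 10.4%) and 7.14% (4.04% to 10.9%), alike within counting error. The weak tll peak 3, on the other side of the gene, went from 4.06 to 1.54 and retained 17.6%, with a wide interval of 2.63% to 36.7%.

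At hkb, which encodes a zinc finger repressor of the terminal system, the distal peak (3R, 4348112 to 4348940) was the highest of all in no light at 33.9 and stood at 4.47 at 30 min. That is 7.59-fold lower (6.21 to 9.35), with 10.5% retained (8.09% to 13.4%). The promoter peak of the same gene (3R, 4346449 to 4347038) started lower, at 17.5, and ended higher, at 5.28, and was 3.32-fold lower (2.73 to 4.07) with 25.9% retained (20.5% to 31.95%). The order of the hkb peaks was thus inverted in the 30 min values, though their 30 min intervals of 3.67 to 5.41 and 4.40 to 6.29 overlap. Their windows lay 1580 bp apart in no light, but at 30 min this distance could not be found. The values may therefore not come from the same places in both conditions. Of the other terminal, gap and head genes listed, fkh, a forkhead factor of the gut primordia, retained 8.91%, pdm2, a POU-domain factor, 3.66%, and hbn, a head homeobox gene, 10.4%. Peaks were present for 5 of 17 genes of this list. All 8 of their peaks were called lower, 4 were near-complete losses and 0 residual, and the median share was 9.65%. Over all peaks 79.6% were called lower, 20.4% were near-complete losses and 24.3% residual, and the median share was 22.1%. The peaks of the list were also strong in no light, with a median coverage of 17.9 against 7.41 over all peaks.

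Genes of the RTK and ERK pathway itself ranged from 1.78% retained at sty to 51.6% at cic peak 2. The 11 peaks belonged to 7 of 18 genes on the list. Of these peaks 10 were called lower, 6 were near-complete losses and 1 was residual, against 79.6%, 20.4% and 24.3% over all peaks. The median share was 9.41%, against 22.1%. The lowest share was at sty, which encodes the RTK antagonist Sprouty: coverage was 5.49 in no light and 1.08 at 30 min, where its interval of 0.704 to 1.58 includes the noise level of 1. At aos, which encodes the secreted EGF receptor inhibitor Argos, the promoter peak went from 5.63 to 1.18 (3.81% retained), whereas the intronic peak went from 6.89 to 2.16 (19.7%).

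At pnt, which encodes the ETS activator that acts downstream of ERK, all 3 peaks were near-complete losses. The promoter peak (3R, 23314231 to 23314688) went from 21.8 to 2.96, its intronic neighbour from 16.7 to 2.46, and the distant intronic peak from 5.06 to 1.21. The shares were 9.40%, 9.28% and 5.18%, within counting error of one another. Egfr, the EGF receptor gene, had an intronic peak (2R, 21523540 to 21524163) that went from 13.6 to 2.18 and retained 9.41% (5.02% to 14.8%).

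The FGF ligand gene ths retained 23.8%, from 15.1 to 4.36, and Mkp3, which encodes an ERK phosphatase, 28.6%, from 10.4 to 3.69. Cic also bound at its own gene, at peaks annotated as intronic, and there the shares were higher. The peak cic 1 retained 27.1% (15.9% to 40.8%), from 6.16 to 2.40, and cic 2 retained 51.6% (35.8% to 70.5%), from 5.26 to 3.20. The fold at cic 2 was 1.64 (1.24 to 2.19), the smallest in this list. Both cic peaks were weak in no light.

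Dorsoventral patterning genes had a median share near that of all peaks, though their peaks were stronger in no light. Peaks were present for 13 of 22 listed genes. Of their 14 peaks, 13 were called lower, 1 was a near-complete loss, 12 were intermediate and 1 was residual, with a median share of 19.8%. Over all peaks 79.6% were called lower, 20.4% were near-complete losses, 24.3% were residual and the median share was 22.1%. The median no light coverage was 13.5 in the list and 7.41 over all peaks. Over the 52 peaks at or above the median no light coverage, themselves with a median of 12.5, the share was 17.1%. Of those, 50 were called lower, 14 were near-complete losses and 5 residual. The near-complete loss was at zen2, the neighbour of the dorsal homeobox gene zen, where coverage went from 13.4 to 2.05 (8.48% retained). At zen itself it went from 19.3 to 3.85 (15.5%). The neuroectodermal homeobox gene ind retained 10.5%, from 12.03 to 2.16, and brk, which encodes a repressor of Dpp target genes, 12.5%, from 6.33 to 1.66. The GATA factor gene pnr retained 14.2%, wntD, which encodes a Wnt-family inhibitor of Dorsal signalling, 17.04%, and zfh1, a zinc finger homeobox gene, 17.5%.

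Higher shares were found at other genes of the dorsal side. The BMP ligand gene dpp retained 24.1% at its stronger intronic peak, which went from 18.2 to 5.14, and 28.7% at the weaker one, from 6.84 to 2.67. The metalloprotease gene tld retained 22.1%. Of the T-box genes, Doc3 retained 22.5%, from 7.59 to 2.48, and Doc2 31.5%, from 18.5 to 6.51. The residual peak of the list was upstream of sna, the zinc finger repressor of the mesoderm (2L, 15479845 to 15480261). It went from 12.8 to 7.19, a 1.79-fold difference (1.49 to 2.15), and retained 52.2% (43.5% to 62.0%), more than any other peak of this list.

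The gut and endoderm list had peaks at 2 of 3 genes. The GATA factor gene srp retained 10.7% at its stronger peak, from 19.5 to 2.98, and 23.5% at the weaker one, from 8.67 to 2.80. Together with fkh, all 3 peaks were called lower and 1 was a near-complete loss, too few to set apart from the 79.6% and 20.4% over all peaks.

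The list of pair-rule, Hox and neural genes had peaks at 6 of 13 genes. The 7 peaks had a median share of 27.0%, 6 were called lower, 1 was a near-complete loss and 2 were residual, close to the 22.1%, 79.6%, 20.4% and 24.3% of all peaks in the same order. At pros, a homeobox gene of neural precursors, coverage was 3.89 in no light and 0.799 at 30 min, the single value below the noise level. Its interval of 0.482 to 1.25 includes that level. The pair-rule gene prd retained 20.3% at prd peak 1 and 53.9% (39.4% to 70.8%) at prd peak 2, where coverage went from 6.08 to 3.74. The Hox gene abd-A retained 32.8%, the zinc finger gene salm 33.8%, Tom, a member of the Bearded family, 27.0%, and sisA, an X-linked sex determination gene, 19.0%.

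A list of 8 genes known as Cic targets, which overlaps the lists above, held tll, hkb, ind, aos, pnt, zen, tld and dpp. All 15 of its peaks were called lower, 6 were near-complete losses and 0 residual, against 79.6%, 20.4% and 24.3% over all peaks. Its median share was 10.5% and its median fold 4.79, against 22.1% and 3.11 over all peaks. Its peaks were also strong in no light, with a median coverage of 16.7 against 7.41. Of the 26 peaks with the highest no light coverage, whose median was 17.5, 25 were called lower, 10 were near-complete losses and 3 residual. Their median share was 15.6% and their median fold 4.92. The part of strength in the values of the list was not tested. Over the 41 peaks of any list the median share was 17.5%, with a median no light coverage of 9.50. Over the 62 peaks of no list it was 26.0%, with a coverage of 6.56. Since the lists were drawn up with earlier results of these data known, this difference is a description only.

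Near-complete loss was also found at strong peaks of genes outside the lists. The lowest share among peaks at or above the median no light coverage was at CG15599, downstream of the gene, where coverage went from 9.57 to 1.20 (2.35% retained). A pair of neighbouring intronic peaks assigned to Rpn12R, a relative of a proteasome subunit gene, went from 17.3 to 2.29 and from 17.4 to 1.84. The latter was 9.44-fold lower (6.93 to 13.2), the largest fold of the 103. Their shares were 7.90% and 5.15%. They lie in the same locus as the ind peak, 4451 bp away from summit to summit, which retained 10.5%.

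The scaffold gene bbg retained 7.43%, Sox21b, an HMG-box gene, 7.54%, CG32719 5.46% and the stronger peak of fend 8.49%. Among weaker peaks, the adhesion gene kirre retained 3.19%, from 6.02 to 1.16. At 10 peaks the 30 min interval included the noise level, so any remaining binding there was not detectable at this depth.

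Residual peaks were fewer among strong peaks than among weak ones. The share has no light height as its denominator, so this split is in part built into the measure. Of the 52 peaks at or above the median no light coverage, 14 were near-complete losses and 5 were residual. Of the 51 below it, 7 were near-complete losses and 20 residual. The 5 strong residual peaks were at CG12986, sna, CG15480, shn and SdhAL. The control level that the peak caller used from untagged embryos, which have no GFP on Cic, was high at some of them. It was worked back from the deposited pileup and fold enrichment as control plus 1, and is not a measured coverage. Relative to the lowest in the list it was 2.78 at CG15480, 2.15 at CG12986, 1.77 at sna, 1.41 at SdhAL and 1.17 at shn, against a median of 1.21 over all peaks. Its part in the signal left at 30 min was not tested. At CG12986 (X, 17819364 to 17820471, over the promoter), coverage went from 25.01 to 10.96, 2.28-fold lower (1.98 to 2.64), with 41.5% retained (36.1% to 47.4%). It ranked 3 in no light and 1 at 30 min. At CG15480 (2L, 13225083 to 13225898, over the promoter) coverage went from 11.1 to 6.91, a 1.61-fold difference (1.33 to 1.95), with 58.3% retained.

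An intronic peak assigned to shn, which encodes a zinc finger partner of the Dpp pathway, went from 13.5 to 6.73 (45.9% retained). The peak of SdhAL, a relative of a succinate dehydrogenase subunit gene, went from 9.33 to 4.42 (41.1%). Close below the limit came tal-2A, a gene of short peptides, at 32.5% and milt, which encodes a mitochondrial transport adaptor, at 31.0%. The order of sites was rearranged accordingly. Of the 10 highest peaks in no light, 3 were still among the 10 highest at 30 min: hkb peak 1, CG12986 and Doc2. The promoter peak of tll moved from rank 2 to rank 41, pnt peak 1 from 4 to 40 and tll peak 2 from 6 to 58. The peak at sna moved from rank 26 to 2, CG15480 from 31 to 3 and shn from 23 to 4.

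The peaks that were not lower beyond counting error were all weak in no light. They were at vlc (3.76 and 3.10), the leucine-rich repeat gene trn (3.97 and 3.64), the tubulin gene betaTub60D (3.25 and 3.11), a peak without gene symbol on 3R (2.30 and 2.44) and Cyt-b5-r, a cytochrome b5-related gene (2.89 and 3.11), with no light first. Only the last and the peak without symbol had higher values at 30 min, with folds of 0.930 (0.674 to 1.29) and 0.941 (0.654 to 1.36). The signal at Cyt-b5-r was 60 bp wide at 50% of its height in both conditions, narrower than a single 74 bp tag. Other weak residual peaks were at the cadherin gene CadN (59.3%), the cytoskeletal genes Shroom (61.8%) and shot (38.8%), and CG42807 (65.3%). CG42807 already had 0.525 times the wild type coverage in no light, the lowest such ratio of all.

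The retained share was lower where the no light coverage, from which its denominator is taken, was higher. The median was 37.8% over the 26 peaks with the lowest coverage, 23.7% over the next 26, 19.0% over the next 25 and 15.6% over the 26 with the highest. The windows appear to be centred anew per condition: the highest point of the central 400 bp was at the centre in all 103 windows in no light and in 87 at 30 min. As a reference, flanks of the windows were centred in the same way at 181 of 206 flank sides free of other calls, and the mean within 100 bp of the flank's centre was taken. The 95th percentile of these flanks was 3.53 at 30 min and 5.20 in no light, and their medians were 1.51 and 1.71. Height that centring alone can give is a larger share of a weak peak than of a strong one. The fall of the share with no light coverage is therefore in part built into the measure. By the same narrow measure, 56 peaks were at or below the flank percentile at 30 min, against 6 in no light. The 47 peaks above it included 3 near-complete losses (tll peak 1, tll peak 2 and pnt peak 1), 24 intermediate peaks and 20 of the 25 residual ones. At 56 peaks, then, the 30 min height did not exceed that of the highest pooled flanks, which does not show that binding was absent there. By the wider measure, the 30 min interval included the noise level at 10 peaks. The classes and the count against the flank percentile both use the 30 min height, so the split between classes follows in large part from how they were set.

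**Figure D2:**
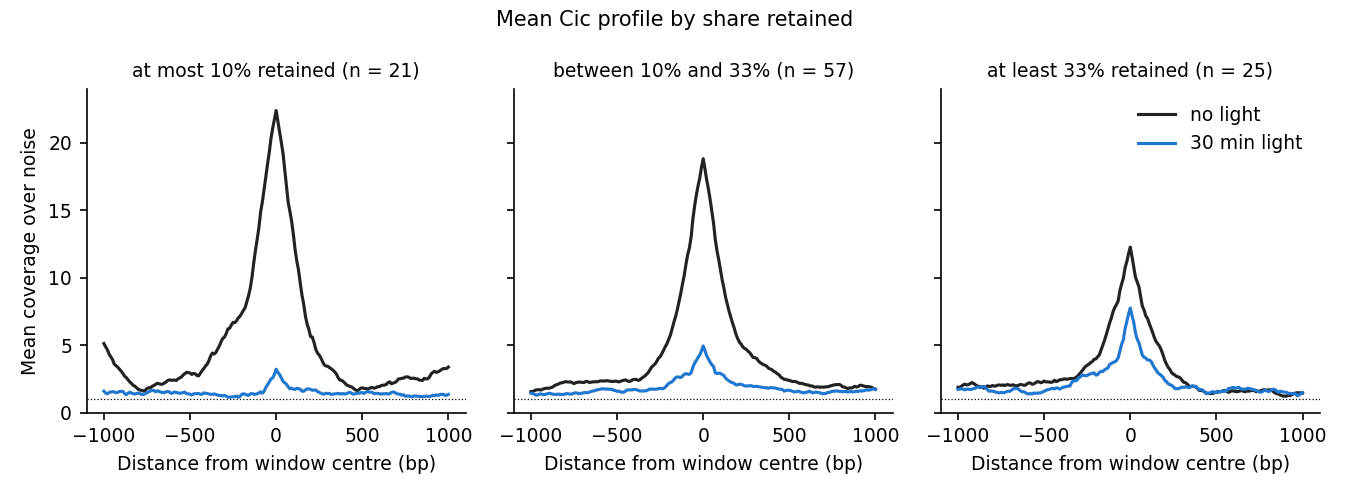
Mean coverage over noise (vertical) against distance from the window centre in bp (horizontal) for peaks with at most 10%, between 10% and 33% and at least 33% retained, in no light (black) and at 30 min (blue). The central value goes from 22.4 to 3.23 in the first group, from 18.8 to 4.96 in the second and from 12.3 to 7.77 in the third. The 30 min profile is highest at the centre in all 3 groups, above flanks of 1.43, 1.54 and 1.64 that were not centred anew. Since the windows appear to be centred anew per condition, a central maximum can arise from the centring alone and is by itself no sign of binding.

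The shape of the signal along the window was compared as well. The profile of each 30 min window was slid along that of no light by up to 300 bp, and a window counted as placed where the correlation of the profiles along the window reached 0.5. Of 103 windows 89 were placed, 60 of them within 50 bp and 17 over 100 bp away. The best of all shifts was taken, and both profiles appear to be centred on their own highest points. Both favour a high correlation, and the centring favours a small shift. Unrelated windows were not compared, so these counts do not show that the positions coincide. Among residual peaks 24 of 25 were placed, 17 within 50 bp, and the median correlation was 0.85. Among near-complete losses 15 of 21 were placed, 7 within 50 bp, with a median of 0.61. These correlations are along positions of 1 window that share reads, and are descriptive. They are no reading apart from height, since the 30 min coverage moved with them, with a median of 1.84 in near-complete losses and 3.32 in residual peaks.

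Single peaks differed too. At CG12986 the correlation was 0.96, at Doc2 0.95, at SdhAL 0.94, at shn 0.93 and at sna 0.87. At tll peak 1 it was 0.07 and at pros 0.29, and these were not placed. In no light hkb peak 1 had a second summit beside the central one, and its 30 min window was placed 300 bp away, the limit of the search.

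**Figure D3:**
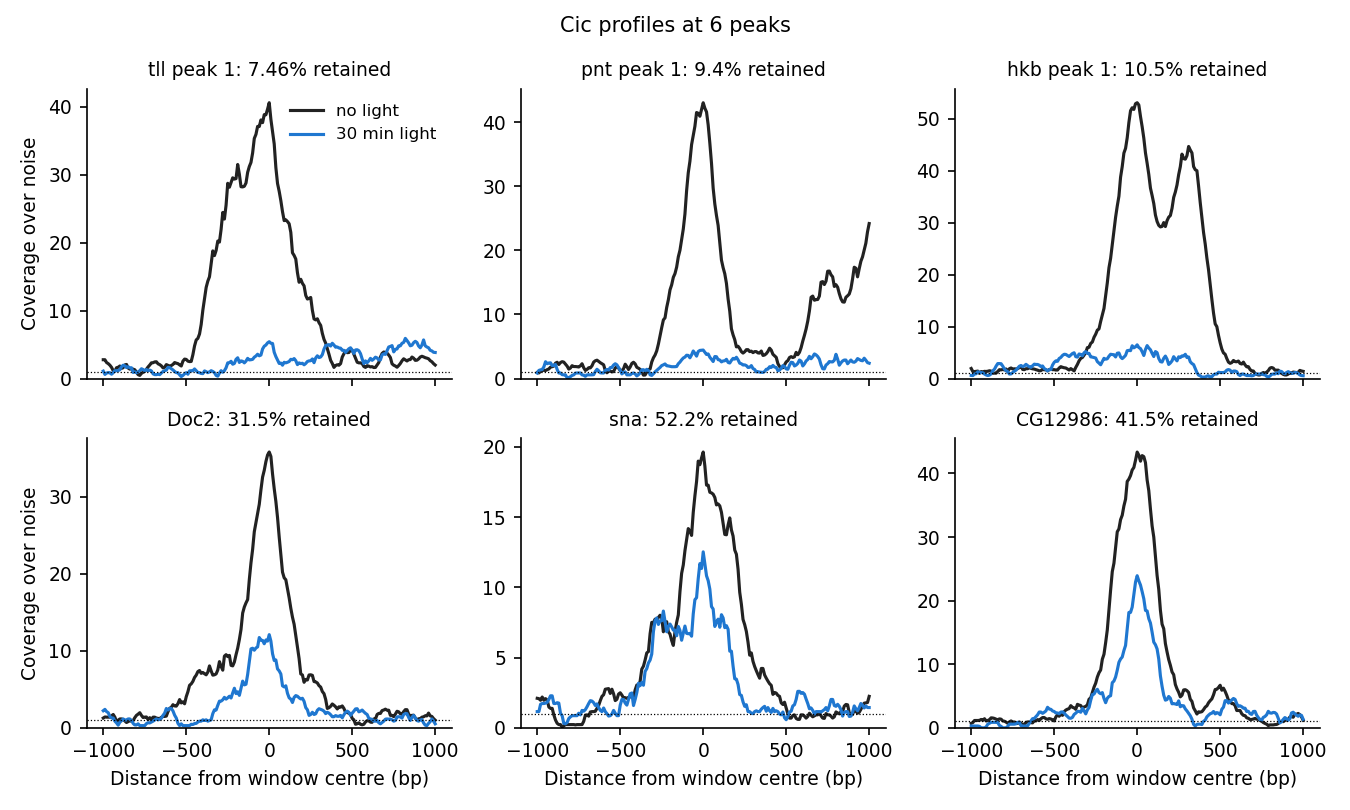
Coverage over noise (vertical, own scale per panel) against distance from the window centre in bp (horizontal) at 6 peaks in no light (black) and at 30 min (blue). Within 200 bp of the centre, all 6 are highest at the centre at 30 min, with 5.42 at tll peak 1, 4.44 at pnt peak 1 and 6.49 at hkb peak 1, against 12.1 at Doc2, 12.5 at sna and 23.9 at CG12986. The central position can arise from the centring alone, since windows appear to be centred anew per condition. At tll peak 1 the window holds a higher point, 5.92, at 820 bp.

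Several genes carried more than 1 Cic peak, which allows sites of the same gene to be set side by side. Of 11 such genes, 6 had all peaks in the same class (pnt, Rpn12R, dpp, hkb, srp and InR) and 5 had peaks in different classes. At dpp, hkb, srp and InR the shared class was the intermediate one, which holds 57 of all 103 peaks. How often unrelated peaks share a class was not computed, so the count is a description only. The difference between the highest and the lowest share of a gene had a median of 10.4 percentage points. It was smallest at InR, the insulin receptor gene, with 29.6% and 31.6%, and at Rpn12R. It was largest at prd, with 33.6 points between peaks 6433 bp apart, and at cic, with 24.5 points between peaks 939 bp apart. At hkb it was 15.3 points, at aos 15.9, at srp 12.8 and at fend 7.19, where the peaks retained 8.49% and 15.7%. For hkb, srp and fend the peak with the higher no light coverage had the lower share. For aos it had the higher share, with 19.7% at a coverage of 6.89 and 3.81% at 5.63. For pnt, too, the strongest peak had the highest share, 9.40%, though its shares were within counting error of one another.

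The widest contrast between close neighbours lay on 2L, where promoters of CG15480, CG16813 and CG16815 carry peaks with gaps of 1841 and 2028 bp. Their shares were 58.3%, 15.6% and 41.2%, and the middle one had the highest no light coverage at 16.4. Neighbouring windows overlap in part, and since windows appear to be centred anew, their distance can differ between conditions. For cic it was 800 bp in no light and 1030 bp at 30 min, for the pnt promoter pair 1030 and 670 bp, and for srp 770 bp in both. The lower of the pnt distances means that the 30 min values of that pair came from places closer together than the summits.

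**Figure D4:**
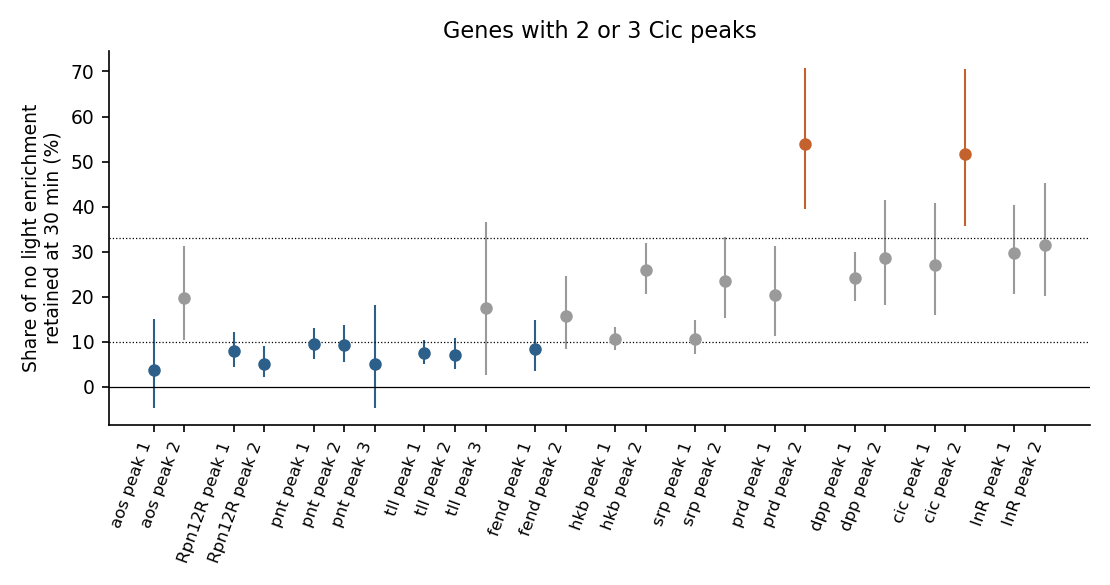
Share of no light enrichment retained at 30 min in % (vertical) for each peak of the 11 genes with 2 or 3 peaks (horizontal). Bars are 95% intervals for the counting error of the 30 min value, and dotted lines mark 10% and 33%. The peaks of pnt and Rpn12R all lie below 10%, whereas prd peak 2 and cic peak 2 lie above 50% and their partners below 33%.

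Position relative to genes separated the shares little. By the authors' annotation, promoter peaks retained a median of 25.2% (n = 27), intronic peaks 22.1% (n = 41), distal intergenic peaks 17.7% (n = 14) and peaks with no annotation given 15.98% (n = 14). The quartiles overlapped widely, from 16.3% to 33.2% for promoters and from 12.7% to 30.6% for distal peaks. By fold the order was not that of the shares, since promoter peaks were 3.28-fold lower and distal peaks 2.86-fold. Within 1000 bp of a transcription start the median share was 23.97% (n = 39), between 1000 and 5000 bp 20.0% (n = 46), and beyond that 20.0% (n = 18).

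Chromosomes differed more. On chromosome 2 the median share was 33.8% (n = 31), with 16 residual peaks and 2 near-complete losses, pdm2 and Egfr. On chromosome 3 it was 17.5% (n = 59), with 7 residual and 15 near-complete, and on the X 13.7% (n = 13), with 2 residual and 4 near-complete. The arms gave 32.7% on 2L, 41.7% on 2R, 17.8% on 3L, 17.3% on 3R and 13.7% on the X. Several values moved with this order. The median no light coverage was 6.54 on chromosome 2, 8.50 on 3 and 8.63 on the X, and the flanks at 30 min had medians of 1.37, 1.33 and 0.95. Over peaks at or above the median no light coverage the shares were 24.1% (n = 11), 16.8% (n = 32) and 15.0% (n = 9), a smaller difference in the same order.

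The untagged control level of the peak caller, worked back as above and relative to the lowest in the list, had medians of 1.27, 1.20 and 1.01. Over all chromosomes, the 21 peaks with an untagged level of at least 1.5 times the lowest retained a median of 28.6%, and the other 82 retained 18.3%. The part of no light coverage, flank level and untagged level in the difference between chromosomes was not tested. Peaks are not replicates of a chromosome, and the order is a description of these 103 sites.

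**Figure D5:**
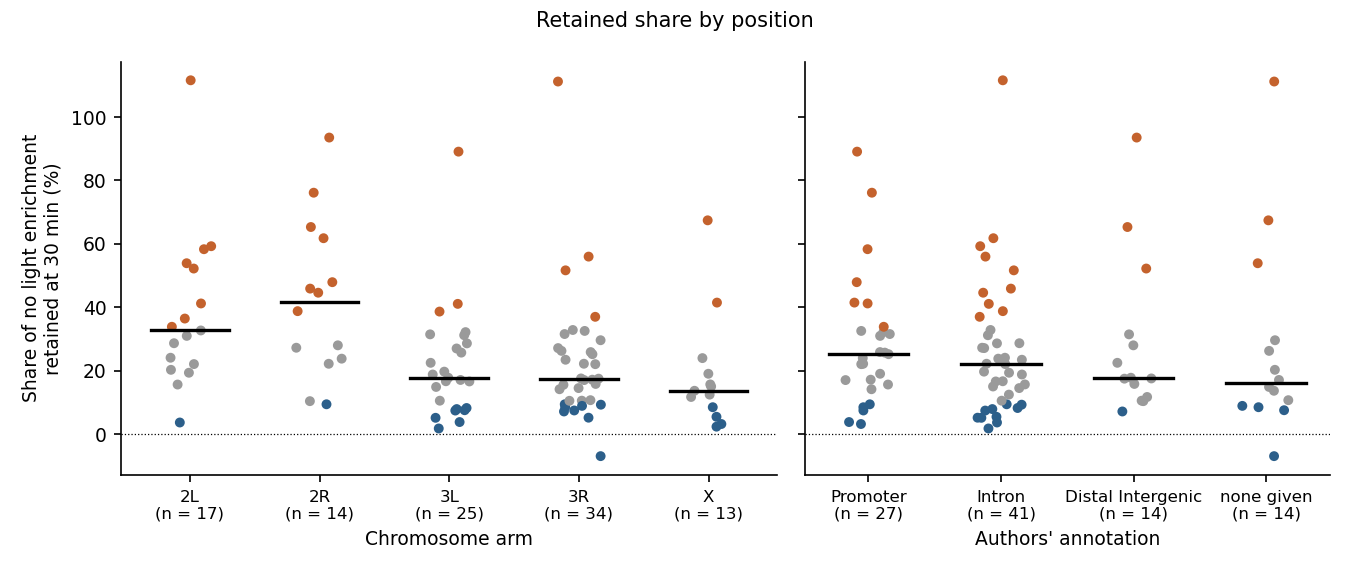
Share of no light enrichment retained at 30 min in % (vertical) by chromosome arm (left) and by the authors' annotation (right, the 4 classes with over 5 peaks), 1 point per peak, with a bar at the median. Points of arms 2L and 2R reach higher, with medians of 32.7% and 41.7%, than those of 3L, 3R and X, with 17.8%, 17.3% and 13.7%, and the annotation classes overlap.

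Residual and lost sites were set beside the other conditions. The share retained at 30 min was below that at 5 min at 90 of 103 peaks. At 5 min near-complete losses had a median share of 23.8%, intermediate peaks 37.5% and residual peaks 57.3%. The 5 min and 30 min shares use the same no light matrix, so they are not independent. In active Torso relative to wild type, which uses neither light matrix, the medians were 25.3%, 35.8% and 68.1% in the same order.

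At single peaks the conditions did not always run together. The promoter peak of pnt retained 85.3% at 5 min and 9.40% at 30 min, and 93.4% of its wild type enrichment in active Torso. At zen2 the corresponding values were 53.3%, 8.48% and 62.0%. At tll peak 1 they were 16.1%, 7.46% and 20.8%, so this site was already low after 5 min. At CG12986 they were 78.1%, 41.5% and 96.0%, and at sna 73.96%, 52.2% and 83.1%, high in all 3. At cic peak 2 they were 55.1%, 51.6% and 24.7%, with the lowest value in active Torso.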

How the data were processed

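ChIP-seq of GFP-tagged Cic was measured in nuclear cycle 14 embryos. The submitters' processing notes name the build dm6 and the tools Trim Galore, BWA 0.7.17-r1188, SAMtools, MACS2 and ChIPseeker. Per the file headers, MACS 2.1.2 compared pooled wild type with pooled untagged libraries (6994179 and 5712080 tags) at a q threshold of 0.01 and kept all duplicates. The authors deposited for each call a pileup signal, a fold enrichment ratio, and p and q as −log10 values, and for the final list a score, peak width and distance to the transcription start site. How the 468 calls were filtered to 103 peaks is not given in the sources.

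The authors also deposited 1 matrix of z-scores per condition, each score being read counts per 10 bp window scaled by depth and by noise peaks, per the file headers on the contents sheet. That sheet puts peaks in rows, and the matrices hold them in columns. Column order was taken to be that of the peak list. Neighbour pairs of overlapping windows, each counted in 2 matrices, matched exactly in 11 of 14 cases, against 0 of 200 unrelated pairs. Those that did not match were all at 30 min. Only 14 peaks have overlapping windows, so the order of the other 89 was not checked directly. All scores lay on whole steps above the lowest value (tolerance 1e-06), read as read bases. The lowest score of each matrix was taken as a window without reads and the smallest step as 1 read base. This gives a mean noise coverage of 4.33 reads in no light and 3.47 at 30 min. The whole steps do not test whether the lowest window was empty, and all coverages, folds and shares rest on it. Library totals behind the matrices are unknown. For folds, exact conditional intervals were computed from read equivalents (read bases divided by the tag size of 74 bp). The median over peaks has an order-statistic interval. Intervals of the retained share carry the counting error of the 30 min value only.

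Calculations used Python 3.11.15, numpy 2.4.6, pandas 2.3.3 and scipy 1.17.1, with figures by matplotlib 3.10.9, and were tested on simulated data. Of the 103 peaks, gene symbols are those of the authors' annotation. Intronic is likewise a class of that annotation, and whose intron held a peak was not checked. Named were all peaks of the gene lists, the 10 highest in no light, the 10 lowest and the 10 highest retained shares among peaks at or above the median no light coverage, all peaks not lower at 30 min, and all genes with more than 1 peak. Other genes named were chosen after their values were seen. The peaks, gene lists, limits and tests were chosen with earlier results of these data known. Alternatives were other windows, centring, noise scales, peak sets and limits. Sequence at the peaks and the input libraries were not analysed here.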

Additional observations from a re-analysis of the deposited data

How the results depend on the processing

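The direction of the whole comparison was the same under all alternatives run. The median z-score difference of -6.90 became -11.1 with the mean within 100 bp, -3.99 within 500 bp and -13.4 with the highest 10 bp window, and the median fold of 3.11 became 3.48 within 100 bp, 2.42 within 500 bp and 3.88 without scaling to noise. Within 500 bp the median share was 26.3% and 37 peaks were residual, and with the highest window 7 peaks were near-complete losses. Limits of 5% and 50% gave 6 near-complete losses and 14 residual peaks. Calling by the interval alone gave 98 lower peaks. With only the 53 peaks of a deposited fold enrichment of at least 7, all 53 were lower and 50 were called, the z-score difference was -11.4, the fold 4.11, the share 15.8%, and 6 were residual. There the shares were 23.9% on chromosome 2 and 14.5% on 3. On chromosome 3 the share was 23.9% within 500 bp, 23.7% with the highest window and 14.0% without scaling. Chromosome 2 lay above 3 and the X in 11 of 11 settings, 1 of them, the flank of each arm as scale, chosen after seeing the data. The order of promoter and distal peaks reversed by fold, with a difference of -0.42. For single peaks, 1891 of 2007 values lay within the counting interval of the reported value, 116 lay outside it and 0 reversed. The total includes settings that cannot move a single peak's value, so it is no measure of stability. These are the subsets of peaks, the interval alone, and a fragment length in place of the tag size. Among settings that recompute the value, 46 of 206 lay outside with the mean within 500 bp. With the mean within 100 bp it was 23 of 206, and with the median flank as scale 1 of 206. No paired analysis was possible because replicates were combined in each matrix and no test was run, and for the same reason no replicate could be left out. Depth limits the 30 min values: the median peak had 60.7 read equivalents.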
